A study of Mus musculus with 9 samples.

Results

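The D10 line was compared with the D5 line. Both are green-fluorescent, feeder-grown mouse lines re-derived from transplanted embryonic stem cells (ESCs). The comparison takes 6 of the 9 arrays of the series, 3 labelled D10 and 3 labelled D5, and covers all 28853 probe sets of the array. The members of each group were taken from the sample titles, not from any measured value. The D10 line came from bone marrow taken on day 10 after transplantation, and the D5 line from bone marrow taken on day 5. The ESCs that were transplanted supplied the other 3 arrays, whose levels are given beside those of both lines. Every group, ESCs included, is labelled with the strain C57BL/6×Oct4/EGFP transgenic OG2, in which a green fluorescent protein is driven by regulatory sequence of Oct4 (Pou5f1), and was cultured on feeder cells in ESC medium. After red cell lysis and trypsin digestion of the marrow, GFP-positive cells were sorted, and their colonies were picked and passaged until stable lines grew. The series design describes the D10 and D5 groups as 1 line each. The day of recovery, the line and the colony it grew from therefore cannot be told apart. The labels call the arrays of a group biological replicates, and nothing says that they came from separate derivations, so p-values measure the spread between arrays of a line.

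Mouse ESCs are kept in a self-renewing state by a network of transcription factors around Pou5f1, Nanog and Sox2, and by leukaemia inhibitory factor together with feeder cells. Stable ESC lines are known to drift in culture at imprinted genes, which are expressed from the copy of one parent, and at the sex chromosomes. A small and changing share of the cells in an ESC culture also turns on a transient programme resembling the early embryo after its first cleavage, marked by the Zscan4 gene cluster. Feeder layers are fibroblasts, which secrete collagens, elastic-fibre proteins and hyaluronan and carry mesenchymal surface proteins. RNA from all cells of a dish is pooled in such arrays, so fewer cells of a type and less RNA per cell cannot be told apart.

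The labelled cell type was borne out by its markers. All 10 ESC markers (Pou5f1, Nanog, Sox2, Zfp42, Esrrb, Klf4, Dppa5a, Tdgf1, Utf1 and Fgf4) lay above the background level in both lines and in the ESCs. The background level, 3.68 on the log2 scale, is the level under which 95% of 1397 probe sets of odorant and pheromone receptors lay. The summed linear intensity of the 10 ESC markers ran from 8477 to 8675 on the D10 arrays, 8753 to 9350 on the D5 arrays and 11360 to 11950 on the ESC arrays. The 12 fibroblast or feeder markers were also above background in all groups, and their sum ran from 4536 to 4682 on the D10 arrays, 2985 to 3299 on the D5 arrays and 1496 to 1792 on the ESC arrays. The D10 and D5 arrays did not overlap in either sum. Of marrow cell types, 5 of 7 leukocyte markers (Ptprc, Spi1, Tyrobp, Fcer1g and Cd53), 6 of 7 neutrophil markers and 5 of 7 macrophage markers were below background in D10. Of erythroid markers 3 of 6 were above background in D10 and 4 of 6 in D5, and of endothelial markers 6 of 7 in D10 and 5 of 7 in D5. The D10 arrays 1 and 3 stood apart as a near-identical pair. Their difference over 8292 probe sets had a standard deviation (SD) of 0.0686, which was 0.154 to 0.201 in the 8 remaining within-group pairs. Both were averaged into 1 sample, so D10 enters each test with n = 2 and D5 with n = 3.

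**Figure D1:**
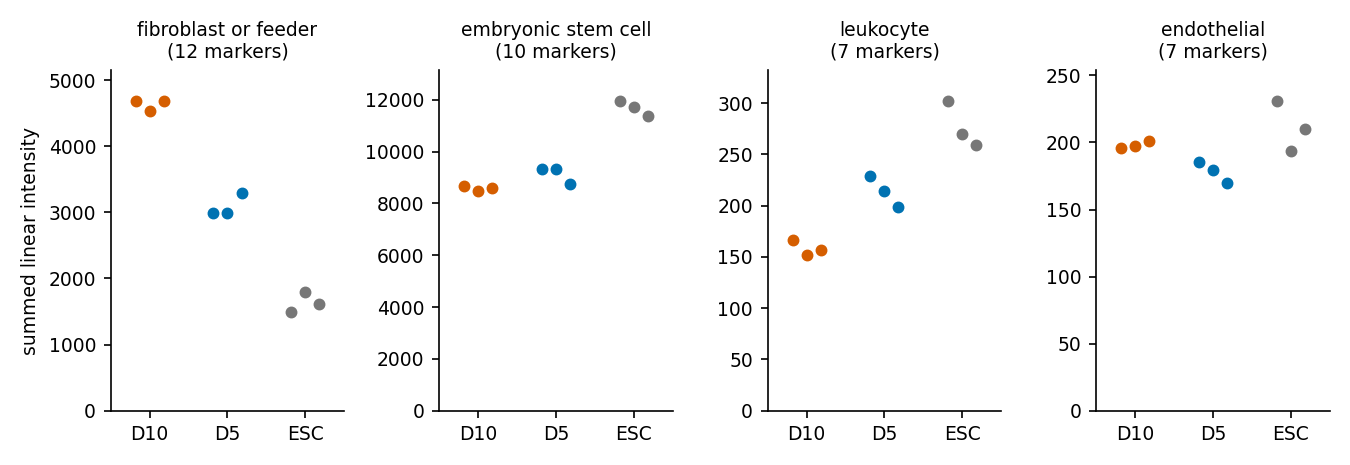
Summed linear intensity of 4 lists of marker genes on each array of D10, D5 and ESC (1 point per array, each panel with its own axis starting at 0). The fibroblast or feeder sum lies between 4536 and 4682 on the D10 arrays, above the D5 arrays (2985 to 3299) and the ESC arrays (1496 to 1792), while the ESC marker sum is lowest in D10 (8477 to 8675).

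Most of the genes that differed between the lines were higher in D10. In limma, with p-values adjusted by Benjamini-Hochberg across the whole array, 62 of 28853 probe sets (0.215%) had an adjusted p under 0.05, of which 56 (0.194%) were higher in D10 and 6 (0.0208%) lower. Of these, 20 were at least 2-fold higher and 3 at least 2-fold lower. With 1 probe set for each of 22319 genes, 52 genes (0.233%) passed, 48 (0.215%) higher and 4 (0.0179%) lower. An unadjusted p under 0.05 was reached by 10.8% of genes, and the arrays of the lines did not overlap for 10.7% of genes higher in D10 and 9.76% lower. The median log2 change over all genes was -0.01, with a positive change in 48% of them. The genes called higher included Has2, Lox and Ccl2, next to the imprinted gene Peg10, the Y-linked gene Uty and the Zscan4 cluster.

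The count itself depended strongly on single arrays. It was 18, 16 and 19 without ESC replicate 1, 2 and 3, which enter only through the shared estimate of the spread. It was 4, 14 and 6 without D5 replicate 1, 2 and 3, and 30 and 4 without D10 replicate 1 and 2. Without D10 replicate 3 it was 56. Of the 62 probe sets, 55 passed in at least 1 of these 9 fits, 32 in at least 2 and 12 in at least 5. Has2, Peg10 and Uty passed in all 9. Every other call was lost without at least 1 of the arrays, and those of Dkk2, Hbegf, Neurod1, Plagl1, Antxr2, Capn2 and Anxa8 were lost in all 9 fits. Col1a2, Col12a1, Efemp1, Thbs2, Ccn1, Thy1 and Runx1 passed only in the fit without D10 replicate 3, a member of the near-identical pair. A fit on the D10 and D5 arrays alone called only Peg10 and Has2. Every one of the 62 probe sets kept the sign of its change in all alternatives that tested it.

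**Figure D2:**
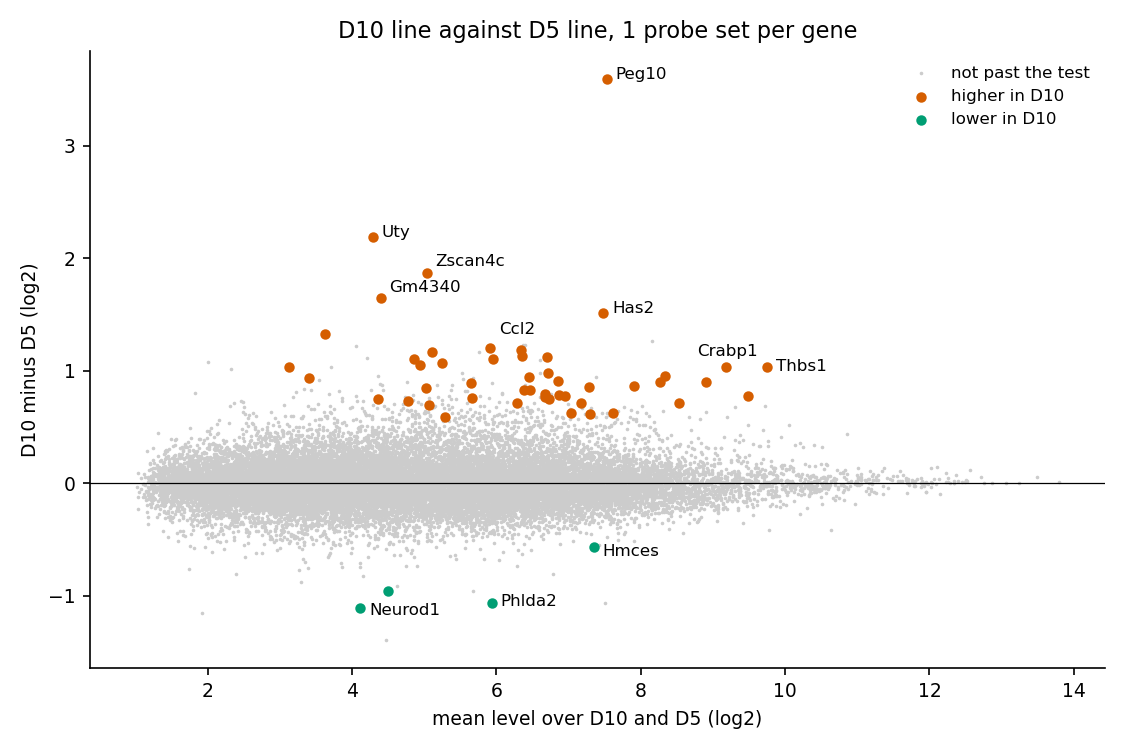
Log2 change of D10 minus D5 (vertical axis) against the mean log2 level over both lines (horizontal axis), 1 point per gene, with genes past an adjusted p of 0.05 coloured. Of 22319 genes, 48 were higher and 4 lower in D10, and Peg10 stands alone at a change of 3.59.

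Peg10 showed the largest difference between the lines of all genes. Peg10 is a gene derived from a retrotransposon, expressed from the paternal copy and needed for the placenta. Its log2 level was 9.36, 9.31 and 9.32 on the D10 arrays and 5.69, 5.88 and 5.63 on the D5 arrays. The ESC arrays gave 6.37, 6.24 and 6.24, so D10 was far above the ESCs and D5 a little below them. The difference of 3.59 (SE 0.10), a 12.1-fold rise in D10, had a limma adjusted p of 4.5e-06, and it passed in all 17 alternatives. Sgce, the paternally expressed sarcoglycan gene beside it, had log2 levels of 5.55, 4.90 and 5.48 in D10 and 4.33, 4.30 and 4.30 in D5. The Sgce groups did not overlap, but its difference of 0.90 missed the threshold (adjusted p 0.0894), and ESC levels were lower than both.

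The other measured genes around Peg10, in RefSeq gene order, had differences past the test only in Col1a2. Col1a2, 3 measured genes away on the Sgce side, rose by 0.77. Casd1 and Bet1, between or beyond these, had differences of 0.15 and 0.21, and Gng11 one of 0.49, none past the test. On the other flank Ppp1r9a, reported as imprinted in some tissues, had a difference of -0.31. Pon1, Pon3, Pon2 and Asb4, the next genes in that direction, had 0.02, 0.36, 0.09 and 0.05. None of these 4 passed.

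Among 52 measured imprinted genes, Peg10 and Plagl1 rose and Phlda2 fell, against 0.215% and 0.0179% of all genes. The list median was 0.06, against -0.01 over all genes, and 15 members were higher and 6 lower at an unadjusted p under 0.05 (6.27% and 4.52% of all genes). Plagl1, a paternally expressed zinc-finger factor, had log2 levels of 6.96, 6.64 and 6.95 in D10 and 5.86, 6.05 and 5.99 in D5. The groups did not overlap, and the rise of 0.83 had an adjusted p of 0.0466, but the call was lost whichever array was left out (adjusted p 0.0505 to 0.189). Phlda2, a maternally expressed gene that restrains placental growth, had 5.21, 5.63 and 5.12 in D10 and 6.42, 6.44 and 6.54 in D5. All 3 D10 arrays were below the D5 arrays and below the ESC arrays (6.54, 6.58 and 6.61), and the change of -1.07 (SE 0.13) had an adjusted p of 0.0323. Cdkn1c, a maternally expressed cell cycle inhibitor of the same cluster, had a difference of -0.32 that missed the test (adjusted p 0.272).

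At the other imprinted domains no gene passed. H19, a maternally expressed non-coding RNA, was abundant at 11.12, 11.05 and 11.09 in D10 and 10.63, 10.58 and 10.72 in D5, and its difference of 0.43 had an adjusted p of 0.107. Igf2, the fetal growth factor next to H19, had a difference of 0.40 (adjusted p 0.309). In the Dlk1 domain the maternally expressed RNAs Meg3 and Rian had differences of -0.62 and -0.54 (adjusted p 0.129 and 0.0818), while paternally expressed Dlk1 differed by 0.04, with a 95% interval of -0.23 to 0.31. Mest and Nnat, both paternally expressed, had differences of 0.59 each (adjusted p 0.0738 and 0.103).

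Uty was the only Y-linked gene past the test. Uty encodes a homologue of the histone demethylase Utx. Its log2 level was 5.62, 5.18 and 5.57 on the D10 arrays and 3.27, 3.03 and 3.30 on the D5 arrays. The D5 arrays, like the ESC arrays at 3.09, 2.93 and 3.20, all lay under the background level, so the D10 level was at least 3.27-fold higher (adjusted p 0.00225). Ddx3y, an RNA helicase gene, had 6.54, 6.13 and 6.60 in D10 and 5.22, 5.37 and 4.95 in D5, with a difference of 1.17 and an adjusted p of 0.0562. Its groups did not overlap, and the ESC arrays (4.11, 4.43 and 4.46) were lower than both. Kdm5d and Eif2s3y had differences of 0.50 and 0.46 (adjusted p 0.271 and 0.612), the first below background on every array. Of 12 measured Y-linked genes, 5 were above background and 1 rose (background 0.215% of genes), with a list median of 0.10. Xist, the RNA that silences an X chromosome in female cells, had 6.20, 5.73 and 6.17 in D10 and 5.60, 5.67 and 5.55 in D5, with a difference of 0.35 (adjusted p 0.428).

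The Zscan4 cluster was higher in D10. Zscan4c encodes a zinc-finger protein of the 2-cell-like state and is known for its part in telomere lengthening in mouse ESCs. Its brightest probe set had log2 levels of 6.19, 5.88 and 5.94 on the D10 arrays and 3.86, 4.16 and 4.29 on the D5 arrays. The D5 and ESC arrays (4.24, 3.98 and 3.92) lay in the same range, and the D10 arrays stood clear of both. The rise of 1.87 (SE 0.15), 3.65-fold, had an adjusted p of 0.00665. It lost the call without D10 replicate 2 (adjusted p 0.123). A further 2 probe sets named for Zscan4c also rose, but the copies of this cluster are nearly identical, so the 3 probe sets may read the same transcripts. No other of the 16 measured genes on the 2-cell-like list passed (list median 0.08). At an unadjusted p under 0.05, 2 members were higher and 0 lower (6.27% and 4.52% of all genes). Predicted genes outside this list also passed. Gm4340 rose by 1.64 (limma adjusted p 0.0225), with D5 and ESC means below background. Gm13040 rose by 1.035 on its brightest probe set, with all group means below background. Whether they belong with Zscan4c was not tested. Only 6 of the 16 listed genes were above background. Usp17la, at 2.41, 3.28 and 2.35 in D10 and 2.11, 1.90 and 2.30 in D5, and Zfp352, with a difference of 0.09, had means below it.

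**Figure D3:**
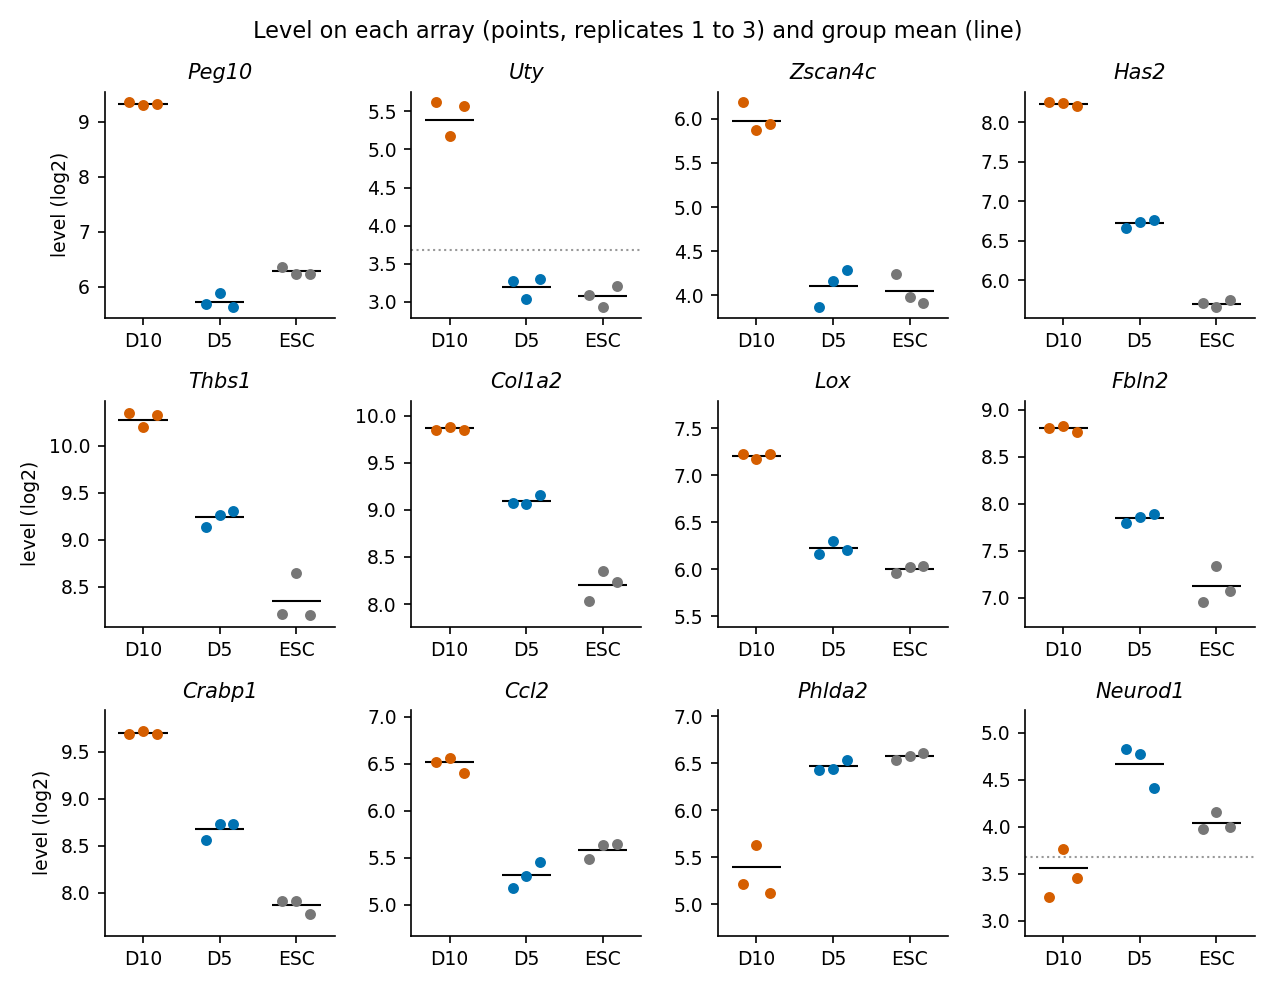
Log2 level of 12 genes on each array of D10, D5 and ESC (points, replicates 1 to 3 from left to right, with group means as lines; the D10 mean counts replicates 1 and 3 as 1 sample; dotted line, background level; axes differ between panels). Peg10, Uty, Zscan4c and Has2 are higher on every D10 array than on any D5 array, Phlda2 and Neurod1 are lower, and Uty in D5 lies under the background level.

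The fibroblast or feeder markers moved with the hyaluronan, matrix, contractile, surface and signalling genes described next. Part of this is the same genes counted again. Col1a1, Col1a2, Col3a1 and Col6a3 are also among the collagens, and Thy1 among the surface markers. Acta2 and Dcn are described again with the contractile and proteoglycan genes, and this is not a full account of the shared genes. All 12 fibroblast or feeder markers had a positive difference, with a median of 0.59, and Col1a2 and Thy1 passed. Their summed intensity on every D10 array (4536 to 4682) was above every D5 array (2985 to 3299). The part of feeder cells in the results for these groups was not tested, and D10 and D5 both grew on feeders.

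Has2 was the next largest named rise and one of the most stable. Has2 encodes the main hyaluronan synthase, which spins the glycan hyaluronan into the space around mesenchymal cells. It had log2 levels of 8.26, 8.24 and 8.21 in D10 and 6.67, 6.74 and 6.77 in D5. ESC arrays were lower still (5.71, 5.66 and 5.75), and the 3 groups did not overlap. The rise of 1.51 (SE 0.08), 2.85-fold, had an adjusted p of 0.000592 and passed in all 17 alternatives. The synthases Has1 and Has3 were much dimmer, with differences of 0.24 and 0.21 that did not pass. The hyaluronan receptor Cd44 had 7.37, 7.21 and 7.45 in D10 and 6.61, 6.72 and 6.90 in D5, and its difference of 0.57 missed the test (adjusted p 0.103). Over 21 small leucine-rich proteoglycan and hyaluronan genes only Has2 passed (background 0.215%), with a list median of 0.20. Dcn and Vcan, which encode the matrix proteoglycans decorin and versican, had differences of 0.79 and 0.50 (adjusted p 0.066 and 0.0894).

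Of 39 measured collagens, Col1a2 and Col12a1 rose and none fell, against 0.215% and 0.0179% of all genes. A further count at an unadjusted p under 0.05 gave 12 higher and 0 lower (6.27% and 4.52% of all genes), 12 of the 39 had a negative difference, and the median was 0.07. Col1a2, a chain of the fibrillar collagen of skin and bone, had 9.85, 9.88 and 9.86 in D10 and 9.07, 9.06 and 9.16 in D5. Its rise of 0.77 had an adjusted p of 0.0457, and its ESC arrays (8.04, 8.35 and 8.23) were lower than both lines. Its partner chain Col1a1 had a difference of 0.51 (adjusted p 0.187), and Col3a1 one of 0.57 (adjusted p 0.0601). Col12a1, a collagen that sits on the surface of fibrils, rose by 0.78. Lox, the enzyme that cross-links collagen and elastin, had 7.23, 7.18 and 7.22 in D10 and 6.17, 6.30 and 6.21 in D5, a rise of 0.97 (adjusted p 0.011). It was the single call among 29 collagen-modifying enzymes (background 0.215%), whose median was 0.35. The Lox relatives Loxl1, Loxl2, Loxl3 and Loxl4 had differences of 0.58, 0.58, 0.64 and 0.57 that missed the test.

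Fbln2 and Efemp1, both of the fibulin family of elastic-fibre proteins, rose by 0.96 and 0.71 (adjusted p 0.0323 and 0.0463), the 2 calls among 19 elastic-fibre genes (background 0.215%). The list median was 0.36, 5 of the 19 had a negative difference, and 12 were higher at an unadjusted p under 0.05 (6.27% of all genes). Elastin itself (Eln) was low and differed by -0.16, not past the test, and fibrillin Fbn1 by 0.64 (adjusted p 0.0562). Thbs1, a secreted glycoprotein that activates latent TGF-beta and inhibits vessel growth, had 10.35, 10.20 and 10.33 in D10 and 9.14, 9.26 and 9.31 in D5. Its groups did not overlap, and the rise of 1.03 had an adjusted p of 0.0463. Thbs2, its close relative, rose by 0.85, and Ccn1, a matricellular protein induced by growth factors, by 0.71. These 3 were the calls among 24 matricellular genes (background 0.215%), of which 5 had a negative difference and whose median was 0.24. Ccn2, which encodes another member of the Ccn family, had a difference of -0.13 (adjusted p 0.772).

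Among matrix proteases and their inhibitors, the proteases Mmp3 and Mmp10 and the inhibitor Timp3 had differences of 0.77, 0.65 and 0.67, none past the test, with adjusted p of 0.0704, 0.0601 and 0.0601. The median over 39 genes of this kind was 0.32, against -0.01 over all genes.

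No gene of the smooth muscle and contractile list passed the limma test, although 17 of its 35 members were higher and 0 lower at an unadjusted p under 0.05 (6.27% and 4.52% of all genes). Its median was 0.30, and Acta2, Tagln and Fhl2 had differences of 0.47, 0.62 and 0.67 (adjusted p 0.187, 0.0692 and 0.0532). Acta2 encodes smooth muscle actin and Tagln an actin-binding protein of contractile cells. Of 29 genes listed for YAP and TGF-beta signalling and their targets, Ccn1 and Pmepa1 rose (background 0.215%), and the median was 0.25. A positive difference was seen in 28 of the 29, against 48% of all genes. Pmepa1, a feedback inhibitor of TGF-beta signalling, had 8.44, 8.27 and 8.38 in D10 and 7.50, 7.37 and 7.57 in D5, a rise of 0.86 (adjusted p 0.023). Among 36 Nodal, BMP and Id genes none passed in limma, while 17 were higher and 0 lower at an unadjusted p under 0.05 (6.27% and 4.52% of all genes). Inhba, which encodes the subunit of activin A, had 7.35, 6.87 and 7.30 in D10 and 5.86, 6.18 and 6.31 in D5, with an adjusted p of 0.0704. Id2, an inhibitor of basic helix-loop-helix factors, had a difference of 0.82 (adjusted p 0.0601).

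Among 35 mesenchymal surface markers, Pdgfra and Thy1 rose, against a background of 0.215%, and the list had the highest median of all 45 lists, 0.37. Pdgfra, the receptor for platelet-derived growth factor on mesenchymal and primitive endoderm cells, had 7.12, 7.0 and 7.13 in D10 and 6.21, 6.29 and 6.32 in D5, a rise of 0.79 (adjusted p 0.0358). Thy1, a surface glycoprotein of fibroblasts and T cells, had 7.59, 7.48 and 7.58 in D10 and 6.86, 6.70 and 6.91 in D5, a rise of 0.71 (adjusted p 0.0457). Ly6a, which encodes the surface antigen Sca-1, had the largest difference of the list, 8.83, 8.75 and 8.85 in D10 and 7.24, 7.59 and 7.76 in D5. Its groups did not overlap, but the ESC arrays spread widely (6.33, 6.49 and 5.57) and the difference of 1.26 missed the test (adjusted p 0.11).

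The transcription factor Runx1, known from blood formation and also active in mesenchymal cells, had 5.59, 5.62 and 5.52 in D10 and 5.03, 4.92 and 5.05 in D5. Its rise of 0.59 (adjusted p 0.0466) was the single call among 34 regulators of epithelial to mesenchymal transition (background 0.215%). Of these 34, 12 were higher and 0 lower at an unadjusted p under 0.05 (6.27% and 4.52% of all genes). Runx1 was also the single call among 47 haematopoietic and leukocyte genes (background 0.215%). Of these 47, 3 were higher and 2 lower at an unadjusted p under 0.05 (6.27% and 4.52% of all genes). The medians of these lists were 0.22 and -0.02. Snai2 and Foxf2, mesenchymal transcription factors, had differences of 0.93 and 1.11 (adjusted p 0.0601 and 0.0747). No Hox gene of 39 passed in limma, and the median was 0.18. At an unadjusted p under 0.05, 7 were higher and 1 lower (6.27% and 4.52% of all genes). Only 23 of the 39 Hox genes were above background.

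**Figure D4:**
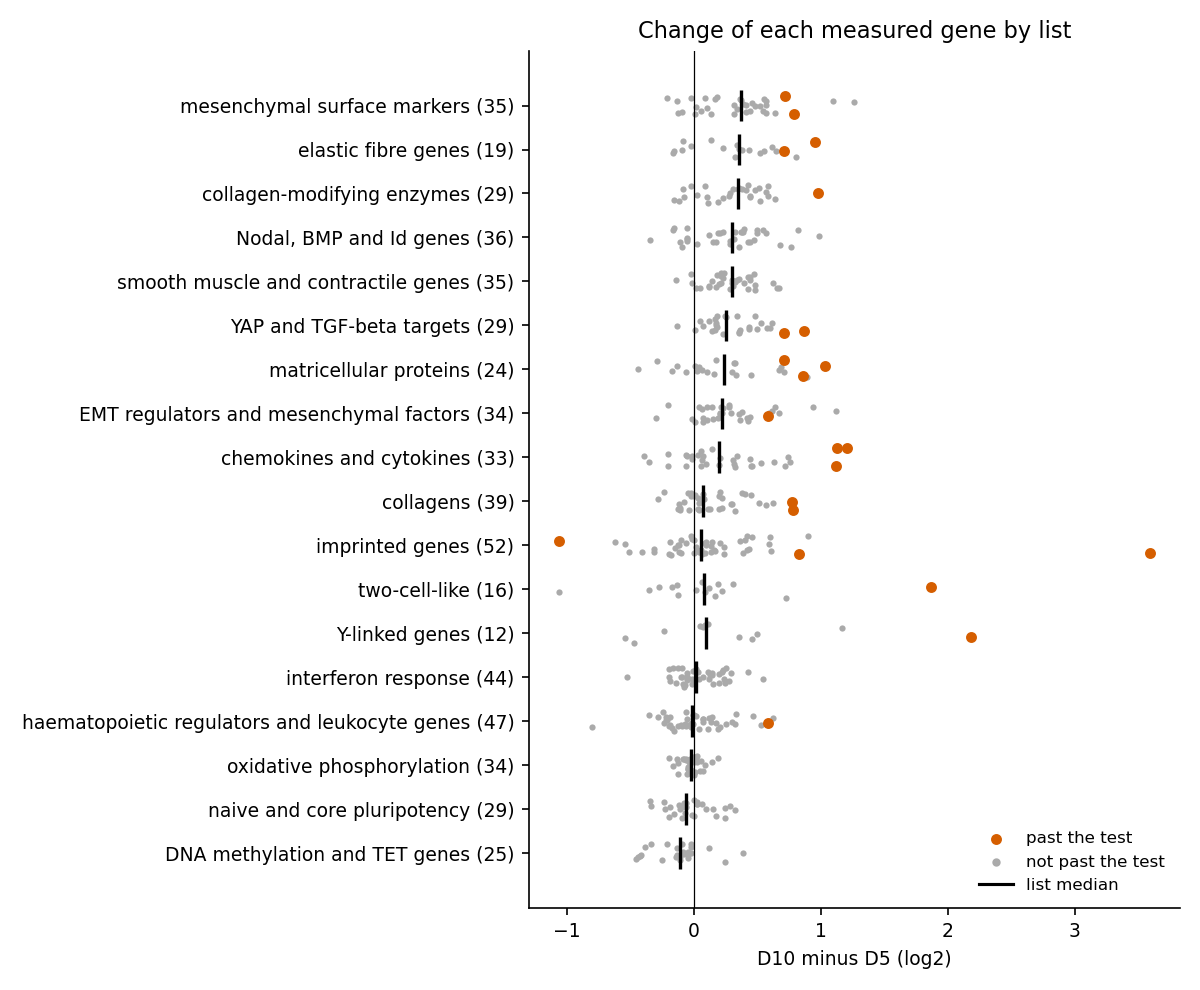
Log2 change of D10 minus D5 for each measured gene of 18 lists (points, list size in brackets), with genes past an adjusted p of 0.05 in orange and the list median as a bar. Medians range from 0.37 for mesenchymal surface markers to -0.11 for DNA methylation and TET genes, and most genes of every list are not past the test.

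Promoter sequences were read for genes past the test, to set the windows of matrix, Zscan4 and imprinted genes beside each other. RefSeq (mouse GRCm38.p6) gave a window of 250 bases before to 50 after the start for 31 of the 52 genes. The windows were searched on both strands for TATAAA, for GGAATG (a motif known for TEAD factors), for TGANTCA (a motif known for AP-1) and for the CArG box, and a match is only a description of letters. Among 28 windows of genes higher in D10, 6 held TATAAA, 3 GGAATG, 4 TGANTCA and 0 a CArG box. Over the windows of 15969 tested genes, 12.3% held TATAAA, 13% GGAATG, 7.02% TGANTCA and 1.49% a CArG box. Windows of other called genes, such as Fbln2, Col1a2, Plagl1 and Uty, held no match, so the windows printed here, which all hold one, are not typical. The 4 windows below, with matches in capitals, show a matricellular gene, an elastic-fibre gene, the Zscan4 gene and the imprinted gene that fell, at chr3:145649936-145650235 (minus strand), chr11:28852955-28853254 (plus), chr7:11005495-11005794 (plus) and chr7:143502475-143502774 (minus). Ccn1 carries a TATAAA and CATTCC, the reverse complement of GGAATG, Efemp1 a TGANTCA match, Zscan4c a TATAAA and a TGANTCA match, and Phlda2 a TATAAA.
Ccn1: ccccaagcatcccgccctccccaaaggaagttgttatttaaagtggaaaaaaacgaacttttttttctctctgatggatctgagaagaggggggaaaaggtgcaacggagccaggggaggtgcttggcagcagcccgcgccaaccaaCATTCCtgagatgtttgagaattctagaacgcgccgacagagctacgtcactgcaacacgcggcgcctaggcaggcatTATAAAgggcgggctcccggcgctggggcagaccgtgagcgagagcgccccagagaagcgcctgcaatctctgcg
Efemp1: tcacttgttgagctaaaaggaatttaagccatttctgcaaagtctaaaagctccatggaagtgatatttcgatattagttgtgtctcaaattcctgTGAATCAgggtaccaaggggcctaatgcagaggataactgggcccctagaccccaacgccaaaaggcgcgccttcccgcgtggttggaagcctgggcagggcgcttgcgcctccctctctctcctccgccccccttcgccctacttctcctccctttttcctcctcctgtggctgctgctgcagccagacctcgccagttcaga
Zscan4c: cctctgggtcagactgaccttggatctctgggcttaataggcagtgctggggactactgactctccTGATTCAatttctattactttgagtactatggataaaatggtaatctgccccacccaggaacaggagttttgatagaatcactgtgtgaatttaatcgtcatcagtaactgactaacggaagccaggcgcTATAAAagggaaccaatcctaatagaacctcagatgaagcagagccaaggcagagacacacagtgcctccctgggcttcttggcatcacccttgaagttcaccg
Phlda2: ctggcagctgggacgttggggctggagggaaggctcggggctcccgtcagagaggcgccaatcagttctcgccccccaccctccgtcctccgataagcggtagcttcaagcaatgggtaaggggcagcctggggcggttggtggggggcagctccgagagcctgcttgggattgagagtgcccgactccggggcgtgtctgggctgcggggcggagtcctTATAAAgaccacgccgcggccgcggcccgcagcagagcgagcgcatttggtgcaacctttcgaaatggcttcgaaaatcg

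Of 33 chemokines, cytokines and receptors, Ccl2, Il1rl1 and Csf1 rose and none fell, against 0.215% and 0.0179% of all genes. The list median was 0.20, and 9 members had a negative difference. Ccl2, the chemokine that draws monocytes, had 6.52, 6.57 and 6.41 in D10 and 5.18, 5.30 and 5.46 in D5, with ESC arrays at 5.48, 5.64 and 5.64. D10 was above both and D5 below the ESC arrays, and the rise of 1.20 (SE 0.11) had an adjusted p of 0.0115. The Ccl2 call was lost without D5 replicate 1 (adjusted p 0.0778) and without D10 replicate 2 (0.138). Il1rl1, the receptor for interleukin-33, had 6.94, 6.86 and 7.02 in D10 and 5.75, 5.76 and 5.87 in D5, a rise of 1.13. Csf1, the macrophage growth factor, rose by 1.12 (adjusted p 0.0225), with 7.34, 7.18 and 7.36 in D10 and 6.05, 6.38 and 6.02 in D5.

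Ereg and Hbegf, both ligands of the epidermal growth factor receptor, rose by 1.10 and 0.62 (adjusted p 0.0457 and 0.0466). Ptgs2, the inducible enzyme of prostaglandin synthesis, had 8.76, 8.68 and 8.77 in D10 and 7.73, 7.89 and 7.84 in D5, a rise of 0.90 (adjusted p 0.0192). Dkk2, a secreted modulator of Wnt signalling, rose by 0.85 and was the single call among 45 Wnt pathway genes (background 0.215%), whose median was 0.07. Fgf7, a growth factor of mesenchyme for epithelium, had 7.12, 6.83 and 7.24 in D10 and 5.91, 6.11 and 5.32 in D5, and its difference of 1.23 missed the test (adjusted p 0.0704). None of the 33 FGF and ERK feedback genes passed in limma, and 10 were higher and 0 lower at an unadjusted p under 0.05 (6.27% and 4.52% of all genes).

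Further rises past 2-fold were Thbd, Cavin2, Dhrs9, Greb1l and Crabp1. Thbd encodes thrombomodulin, the surface anticoagulant of vessel lining, and had 7.05, 6.77 and 7.13 in D10 and 5.73, 5.97 and 5.54 in D5, a rise of 1.18 (adjusted p 0.034). Crabp1, which binds retinoic acid inside the cell, was the most abundant of them, with 9.69, 9.72 and 9.69 in D10 and 8.56, 8.73 and 8.73 in D5, a rise of 1.03 (adjusted p 0.0121). Dhrs9, a dehydrogenase that acts on retinol, rose by 1.10, and Cavin2, a coat protein of caveolae, by 1.16. The arrays of the lines did not overlap in any of these 5 genes. Prtg, an immunoglobulin-family surface protein of the early embryo, rose by 0.94 (adjusted p 0.0127). Zfp296, a zinc-finger gene known from pluripotent cells, had 7.30, 7.30 and 7.35 in D10, 6.56, 6.36 and 6.29 in D5 and 7.10, 7.43 and 7.16 in ESC, so here the D5 line stood apart. Its rise of 0.91 in D10 had an adjusted p of 0.0457.

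Few genes fell in D10. Besides Phlda2, Neurod1, a basic helix-loop-helix factor of neurons and endocrine cells, had 3.26, 3.77 and 3.46 in D10, 4.83, 4.78 and 4.41 in D5 and 3.98, 4.16 and 3.99 in ESC. The D10 mean lay under the background level, so D10 was at least 1.99-fold lower (adjusted p 0.0466). This call was lost whichever array was left out (adjusted p 0.0513 to 0.189). Neurod1 was the single call among 25 neural genes (0.0179% of all genes were called lower). Of these 25, 5 were lower and 1 higher at an unadjusted p under 0.05 (4.52% and 6.27% of all genes). Hmces, a protein that shields abasic sites in DNA, had 7.07, 7.06 and 7.11 in D10 and 7.61, 7.65 and 7.66 in D5, and it fell by 0.56 on the log2 scale (adjusted p 0.0466). Ccdc141 fell on 1 of its probe sets by 1.11, while its brightest, with a difference of -0.74, did not pass. Likewise Antxr2 and Tomm22 each had a dim probe set that rose (0.82 and 0.90) and a brighter one that differed by -0.07 and 0.01, so no direction is given for them.

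No gene of the pluripotency network passed the test. Of 29 naive and core pluripotency genes 0 passed in limma, and the median was -0.06. At an unadjusted p under 0.05, 2 were higher and 3 lower (6.27% and 4.52% of all genes). Pou5f1 had 10.52, 10.37 and 10.51 in D10 and 10.57, 10.55 and 10.57 in D5, a difference of -0.12 with a 95% interval of -0.33 to 0.09. Nanog had 9.64, 9.62 and 9.62 in D10 and 9.34, 9.43 and 9.37 in D5, a difference of 0.25 (interval 0.06 to 0.43, adjusted p 0.318). The Nanog arrays did not overlap, and the Pou5f1 arrays of D10 lay just under those of D5. Sox2 differed by -0.07 (interval -0.27 to 0.13), Klf4 by -0.23 (-0.48 to 0.01), Esrrb by -0.06 (-0.29 to 0.16) and Zfp42 by an amount between -0.30 and 0.29. Of 25 DNA methylation and TET genes, 22 had a negative difference and 3 a positive one, against a positive one in 48% of all genes. The median was -0.11, but none passed in limma. At an unadjusted p under 0.05, 6 were lower and 1 higher (4.52% and 6.27% of all genes). Tet1, which oxidises methylated cytosine, had 9.54, 9.59 and 9.51 in D10 and 9.98 on each D5 array, a difference of -0.42 (adjusted p 0.102).

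Interferon genes were compared next. Of 44 measured, 0 passed in limma, and the median was 0.01. At an unadjusted p under 0.05, 3 were higher and 1 lower (6.27% and 4.52% of all genes). Irgm1, an interferon-induced GTPase of cell-autonomous immunity, had 5.09, 4.76 and 5.09 in D10, 4.47, 4.61 and 4.42 in D5 and 8.02, 8.15 and 8.12 in ESC. Its difference between the lines, 0.42, had an adjusted p of 0.236. Of 23 class I antigen presentation genes none passed in limma. At an unadjusted p under 0.05, 6 of these 23 were higher and 0 lower (6.27% and 4.52% of all genes). B2m, the light chain of class I molecules, had a difference of 0.69, with a 95% interval of 0.31 to 1.06 (adjusted p 0.167).

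Several other programmes had few calls or none. Of 34 oxidative phosphorylation genes 0 passed in limma and 0 had an unadjusted p under 0.05 (10.8% of all genes), with a median of -0.03. Of 49 cell cycle genes 0 passed in limma, with a median of 0.02. At an unadjusted p under 0.05, 4 were higher and 2 lower (6.27% and 4.52% of all genes). Abundant marrow transcripts (34 genes, median 0.01) had 0 calls in limma. At an unadjusted p under 0.05, 2 of them were higher and 1 lower (6.27% and 4.52% of all genes). Only 9 of these 34 were above background, so their median difference says little about the rest. Among haematopoietic genes other than Runx1, Laptm5, a lysosomal membrane protein of leukocytes, had the largest difference, with 6.58, 6.24 and 6.46 in D10 and 7.34, 7.17 and 7.04 in D5. It was not past the test (adjusted p 0.0601), and the ESC arrays (7.83, 7.60 and 7.58) were higher than both lines. Of 26 trophoblast genes only Phlda2 passed, while Krt8 and Krt18, keratins of simple epithelia, had differences of 0.87 and 0.68 (adjusted p 0.114 and 0.0601). Over 20 chromosomes, the median difference of the genes above background lay between -0.022 and 0.02.

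The ESC levels of the genes past the test are given as a description, since these were chosen for D10 above or below D5, which partly fixes where D10 and D5 lie relative to ESC. Of the 56 probe sets higher in D10, the D5 mean lay between the ESC and D10 means in 51, and below the ESC mean in 5. All D5 arrays were above all ESC arrays in 41 of the 56, and all D10 arrays were above all ESC arrays in 55. For Efemp1, the difference from the ESC arrays was 2.22 in D10 and 1.51 in D5, and for Thy1 it was 1.99 in D10 and 1.28 in D5. In Uty and Zscan4c, D10 differed from the ESC arrays by 2.31 and 1.92, and D5 by 0.13 and 0.05. Both sets of differences share the 3 ESC arrays, so they are given side by side and not compared. In all 6 probe sets lower in D10, every D10 array was below every ESC array.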

How the data were processed

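Total RNA was biotin-labelled and measured on Affymetrix whole-transcript arrays, 3 each for D10, D5 and ESC, per the labels' protocols. MAS5 is named in the submitters' processing notes, with no version; how the arrays were normalized to each other was not given in the sources used here. Log2 is the scale of the authors' deposited values: 2 to the power of them gives the linear intensity values of the authors' deposited short table for its 461 probe sets. Array medians ran from 4.45 to 4.53. The authors' deposited p-values, ratio and difference columns were not used. Precision is limited by the number of arrays, which carry no read depth.

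Probe sets were named through RefSeq accessions (18869), symbols (2490) and older symbols (1740) in RefSeq's GRCm38.p6 gene table; 2024 kept the file's name and 3730 stayed unnamed. Each gene is read from its brightest probe set (mean over 9 arrays). limma 3.58.1 in R 4.3.3 (lmFit, eBayes, two-sided, Benjamini-Hochberg over all probe sets, threshold 0.05) was fitted to 8 samples of all 3 groups, with 5 residual and 3.56 prior degrees of freedom; no filter was set. A group mean under the background level was replaced by that level for a fold, written as at least. On simulated data with independent noise, the fit recovered 16% of changes of 0.5 on the log2 scale and 77% of changes of 1. Of the calls made there, 6.06% were false. A difference that missed the test is therefore not shown to be absent.

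The members and the 45 gene lists (1261 of 1286 names matched) were chosen with earlier results of these data known. Lists are described by counts and medians, with no set test. The naming rule takes the 12 largest rises and falls past the threshold without overlap and above background, leaving out predicted genes and receptors, up to 4 called members of each list, and Pou5f1, Nanog, Sox2, Zfp42, Klf4, Esrrb, Irgm1, Peg10, H19, Uty, Ddx3y, Kdm5d, Eif2s3y and Xist. Every other gene named, such as Sgce, Crabp1, Zfp296, Ptgs2 and Ly6a, was chosen after its values were seen. As alternatives, the arrays were quantile-normalized or centred on their medians, the dimmest 30% of probe sets were dropped, limma's trend and robust options were set, arrays were weighted, ESC was left out of the fit, all 9 arrays were kept apart (also with a replicate block), and every array was omitted in turn. Results for 1 gene are not reported here.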

Additional observations from a re-analysis of the deposited data

Results flagged for a closer look

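In 5 results the lines differed past the test and stood on opposite sides of the ESC arrays, and the difference between the lines is the tested one. Peg10 differed by 3.59 between D10 and D5 on the log2 scale (limma adjusted p 4.5e-06), lying 3.04 above the ESC mean in D10 and -0.55 from it in D5. Ccl2 differed by 1.20 (adjusted p 0.0115), with 0.93 in D10 and -0.28 in D5 relative to ESC. Neurod1 differed by -1.11 (adjusted p 0.0466), with -0.48 in D10 and 0.63 in D5, and this call was lost whichever array was left out. A dim probe set of Tomm22 differed by 0.90 (adjusted p 0.0455), with 0.47 in D10 and -0.44 in D5, while its brighter probe set did not differ past the test. The gene listed as ENSMUSG00000052368 differed by -0.96 (adjusted p 0.0466), with -0.45 in D10 and 0.51 in D5. The differences from ESC share the same 3 ESC arrays.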

How the results depend on the processing

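The number of probe sets past the test, 62 (56 higher and 6 lower), was the quantity that moved most. Quantile normalization gave 83, and centring on array medians 46. Dropping the dimmest 30% of probe sets gave 154 (135 higher, 19 lower), an intensity trend with robust estimation 268 (224 and 44), and array weights 29 (27 and 2). Only the D10 and D5 arrays gave 2 (2 and 0), with 2622 probe sets at an unadjusted p under 0.05. Counting the 9 arrays separately gave 517 (423 and 94), and with the replicate number as a block 193 (175 and 18). The main fit did not pair arrays by replicate number. Deviations of same-numbered D10 and D5 arrays from their group means correlated at -0.09, -0.38 and -0.24, and no array correlated best with its own number. These values cannot exclude a pairing, because D10 replicates 1 and 3 are near-identical and do not give separate comparisons. Leaving out each array in turn gave 4 to 56 calls in all, 3 to 50 higher and 0 to 6 lower. The cause of these shifts was not tested. For the 43 genes named by the rule, 487 of 730 values stayed on their side of the threshold, 235 lost the call and 8 gained it. No gene called in the main fit or in the alternative turned its sign. Changes of sign in genes called in neither fit were not counted. Medians of the 45 lists moved by less than the spread between arrays in 798 of 810 values. Counts of calls within a list moved by over 1.5 times in 249 of 765.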
